A study of Mus musculus with 8 samples.

Results

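The axon guidance genes of mouse pancreatic islets were described here: the semaphorins, ephrins, Slits and netrins, which are secreted or cell-surface ligands, and their plexin, neuropilin, Eph, Robo and Unc5 receptors. Members were taken by gene symbol alone, and 58 of the 14126 genes in the deposited table matched. The symbol rule uses no measured value, but members and lists were chosen with earlier results of these data known. All 58 passed the filter on low values, which left 14121 genes. Unc5cl matched by its symbol but encodes an Unc5C-like protein that is no netrin receptor, so it was counted among the 58 and kept out of the 29 ligand and 28 receptor genes. The same symbol rule matched 69 protein-coding genes of the GENCODE M21 annotation, and the other 11 (Efna3, Efna4, Epha6, Epha8, Epha10, Ephb1, Ntn3, Ntn5, Robo3, Sema3d and Sema5b) were not analysed here.

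The islets, clusters of hormone-secreting cells, came from NOD/ShiLtJ mice aged 7 weeks, which are prone to autoimmune diabetes. The 4 KO libraries were from mice labelled IRE1αβ-/-, read here as loss of the endoplasmic reticulum stress sensor IRE1α (gene Ern1) from the insulin-secreting beta cells. The 4 WT libraries were from IRE1αfl/fl mice, whose Ern1 alleles are floxed, and the design text gives 4 mice in each group. To switch on Cre, tamoxifen at 10 mg/ml was injected on 5 consecutive days; this is recorded for KO and WT mice alike, and the promoter driving Cre is not given in the sources used here. Islets were freed with collagenase and protease and picked by hand, so the libraries hold every cell type of the islet and any exocrine, vascular or nerve tissue that came with it. In such bulk RNA, fewer cells of a type and less RNA per cell cannot be told apart.

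Guidance ligands steer growing axons and vessels by attraction or repulsion. Class 3 semaphorins are secreted and act through neuropilin and plexin pairs, most other semaphorins are membrane-bound and bind plexins directly, Slits bind Robo receptors, and netrins bind Unc5 receptors, Dcc and neogenin. Ephrins are anchored to the cell surface and signal in both directions across cell contacts with Eph receptors. In mouse islets, contacts between EphA receptors and ephrin-A on beta cells are known to tune insulin secretion, and Robo receptors in beta cells are known to hold the islet's architecture.

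More guidance genes rose than fell in KO islets. Those that rose were mostly ligands, with Slit2, both netrins, ephrin-A5, ephrin-B3 and 7 semaphorins among them, and the Slit receptor Robo1 fell. Values are normalized counts rounded to whole numbers by the authors, and fold changes are log2 differences of value + 1, KO over WT, with their standard error. A gene was called at a Benjamini-Hochberg adjusted p under 0.05 in limma, adjusted over all 14121 genes. Of the 58 genes, 17 rose in KO islets, a larger share than the 11.1% of all genes called higher, and 2 fell (Robo1 and Sema4b), a smaller share than the 9.81% of all genes called lower. The other 39 were not called. The log2 fold change was above 0 for 48 members and below 0 for 10, with a median of 0.47, beside a median of -0.0008 over all genes tested. Of the 29 ligand genes 12 rose and 1 fell, with a median of 0.75. Of the 28 receptor genes 4 rose and 1 fell, with a median of 0.34.

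The number of calls changed with the model. With replicate number as a block, 22 members were called higher (14.2% of all genes) and 3 lower (11.7%), and all 17 and 2 calls above were among them. With library set as a term (libraries 1 and 2 of each group, or 3 and 4, which lie apart in these data although the labels name no batch), 27 were called higher (17%) and 3 lower (14.9%). The authors' deposited table gave 29 members higher (16.2%) and 3 lower (13.1%) at an FDR under 0.05. Within libraries 1 and 2 alone the counts were 22 and 2 (12.2% and 10.8%) with a median of 0.62, and within libraries 3 and 4 alone 21 and 4 (11.4% in each direction) with a median of 0.39. The split between ligands and receptors changed too. Of the 29 ligand genes, 16 rose with the block, 16 with library set as a term and 17 by the authors' FDR. Of the 28 receptor genes, 5, 10 and 11 rose in the same order.

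**Figure D1:**
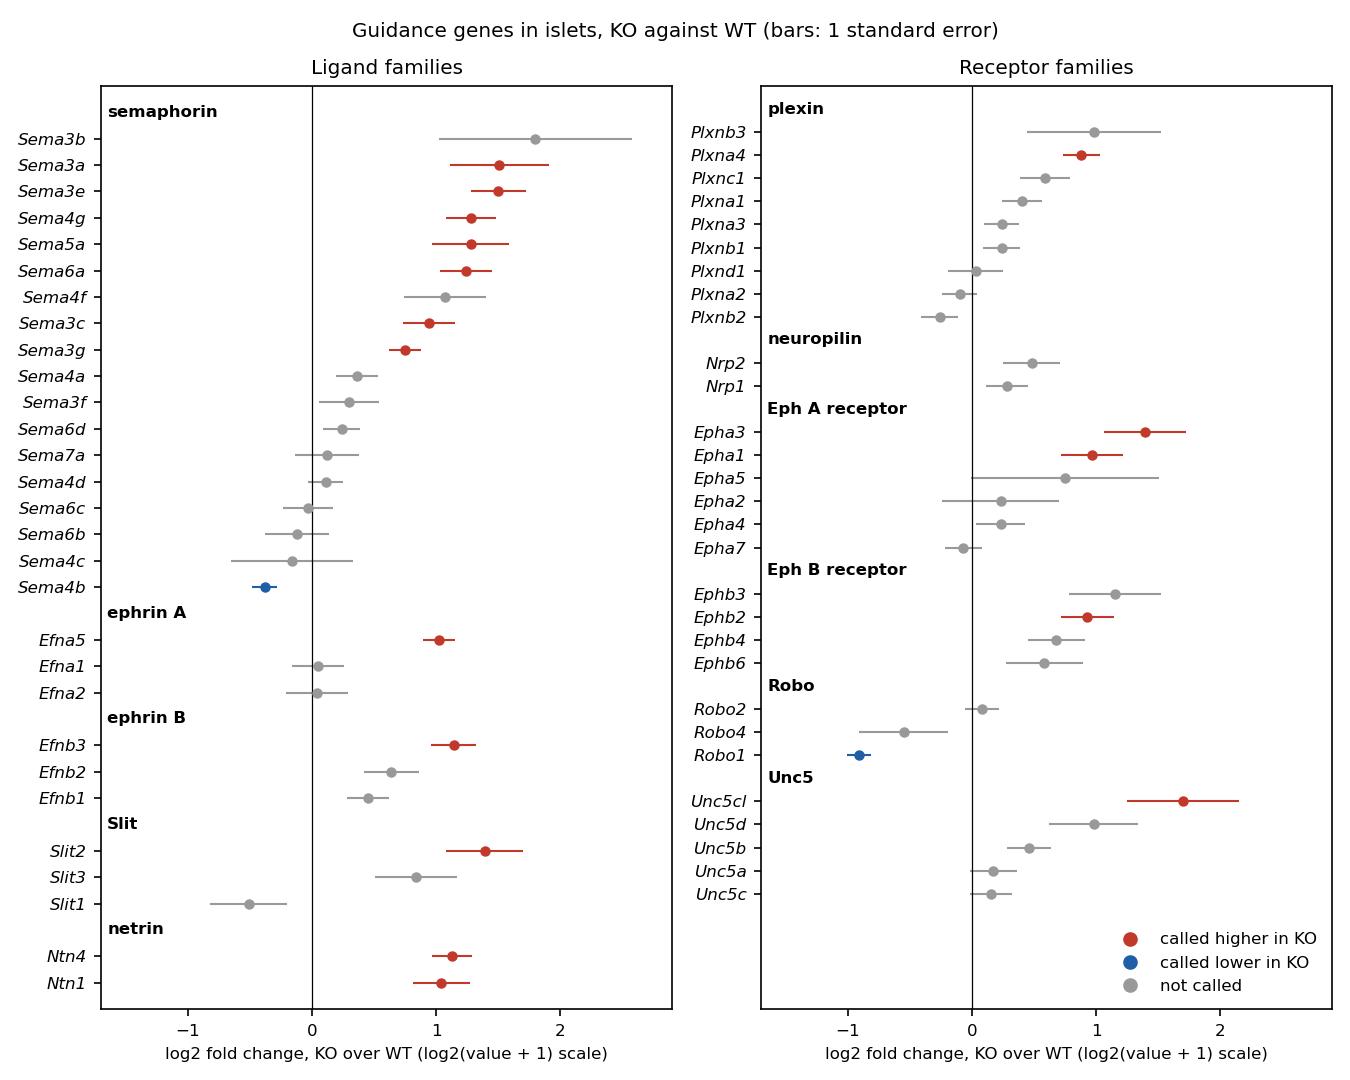
Log2 fold change of each guidance gene, KO over WT on the log2(value + 1) scale, with bars of 1 standard error (4 libraries a group), by ligand family (left) and receptor family (right). Red points were called higher in KO, blue points lower and grey points were not called; 7 of the 18 semaphorins and both netrins lie to the right in red, and Robo1 and Sema4b to the left in blue.

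Ern1 itself read 7223, 7390, 6922 and 7216 in KO libraries, against 5549, 5164, 4622 and 4500 in WT libraries. This total over all exons was higher in KO and does not check the deletion of the floxed exons. Markers of islet cell types also differed between the groups. Of 12 beta cell markers 9 fell and none rose (median log2 fold change -0.99). Of 10 alpha cell markers 8 rose and 1 fell (Dpp4, -0.44 ± 0.10, adjusted p = 0.0182). Of 7 markers of delta, PP and epsilon cells 6 rose. Of 14 stellate cell and fibroblast markers 2 rose, and 11 with the replicate block, with summed values of 17148 to 29339 in KO and 9428 to 16082 in WT libraries. Of 7 Schwann cell markers 1 rose, and 2 with the block (sums of 837 to 1654 in KO and 547 to 928 in WT), with Gfap at 0 in at least 1 library. Of 12 ductal markers 3 rose (24663 to 47340 in KO and 15352 to 29059 in WT). Of 14 acinar markers 1 rose, and 3 with the block, and 1 fell (159211 to 451679 in KO and 27339 to 299006 in WT). None of 14 endothelial markers was called, and 2 were called higher with the block (17993 to 27892 in KO and 17152 to 20912 in WT), and of 11 leukocyte markers 1 rose and 1 fell. The part of these cell types in the results on guidance genes was not tested.

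Semaphorins gave the most calls: 7 of 18 rose in KO islets and 1 fell. Among the secreted class 3 members, Sema3e, a repellent that binds Plxnd1 without a neuropilin, read 559, 432, 381 and 342 in KO libraries, against 111, 125, 169 and 205 in WT libraries. Every KO value lay above every WT value. The KO mean was 2.81 times the WT mean, a log2 fold change of 1.50 ± 0.22 (adjusted p = 0.00215), with 2.05 in libraries 1 and 2 and 0.95 in libraries 3 and 4. Sema3c, which acts through neuropilins, read 1118, 571, 729 and 731 in KO libraries, against 451, 412, 297 and 451 in WT libraries. The groups did not overlap, and KO replicate 1 stood highest (0.94 ± 0.21, adjusted p = 0.0147). Sema3g, a class 3 member known from vessels, read 400, 431, 425 and 494 in KO libraries, against 223, 234, 277 and 312 in WT libraries. The groups were again apart, with little spread inside either (0.75 ± 0.13, adjusted p = 0.00475). Sema3a, the founding chemorepellent of the class, was scarce, at 43, 56, 41 and 53 in KO libraries, against 9, 33, 15 and 15 in WT libraries. Its log2 fold change was 1.51 ± 0.40 (adjusted p = 0.0279), and the call was lost when any of 6 libraries was left out (highest adjusted p 0.0746).

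Sema3b and Sema3f, neighbours on chromosome 9, were not called. Sema3b read 88, 38, 126 and 109 in KO libraries, against 6, 10, 57 and 72 in WT libraries. Libraries 3 and 4 were high in both groups, so the groups overlapped across the sets and not within them. The log2 fold change was 1.80 ± 0.78 (adjusted p = 0.135, and 0.0387 with the replicate block). Sema3f had a log2 fold change of 0.30 ± 0.24.

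Of the membrane-bound semaphorins, Sema5a, Sema6a and Sema4g rose and Sema4b fell. Sema5a, a transmembrane member with thrombospondin repeats, read 1231, 489, 501 and 408 in KO libraries, against 248, 290, 229 and 215 in WT libraries. KO replicate 1 was far above the rest, and the other 3 KO libraries still lay above all WT libraries. The log2 fold change was 1.28 ± 0.31 (adjusted p = 0.0198), and 0.93 without KO replicate 1 with the call kept (the highest adjusted p on leaving out any 1 library was 0.0467). Sema6a, a ligand of A-type plexins, read 625, 407, 445 and 451 in KO libraries, against 141, 180, 256 and 246 in WT libraries. The groups were apart (1.24 ± 0.21, adjusted p = 0.00429), with 1.66 in libraries 1 and 2 and 0.83 in libraries 3 and 4. Sema4g read 214, 221, 197 and 191 in KO libraries, against 59, 76, 99 and 111 in WT libraries. Its KO values were close together and all above WT (1.28 ± 0.20, adjusted p = 0.0029).

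Sema4b went the other way. It read 1052, 1065, 989 and 872 in KO libraries, against 1148, 1236, 1380 and 1417 in WT libraries. The KO values were all below the WT values, and the gap was wider in libraries 3 and 4 (-0.59) than in libraries 1 and 2 (-0.17); that difference was not called (adjusted p = 0.171). The log2 fold change was -0.38 ± 0.10 (adjusted p = 0.0264), a call lost on leaving out any of 5 libraries (highest adjusted p 0.0687). Sema6d, with Sema4b the most counted semaphorin, read 1441, 1521, 1846 and 2022 in KO libraries, against 1119, 1580, 1604 and 1479 in WT libraries, and the groups overlapped (0.24 ± 0.15, adjusted p = 0.287). Sema4f, at 143, 105, 132 and 98 in KO libraries against 34, 39, 82 and 88 in WT libraries, did not overlap between groups and narrowly missed the threshold (1.07 ± 0.33, adjusted p = 0.0513, and 0.0498 with the replicate block). The remaining 6, Sema4a, Sema4c, Sema4d, Sema6b, Sema6c and Sema7a, were not called, with log2 fold changes from -0.16 (Sema4c) to 0.36 (Sema4a).

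The stretch before an annotated start of 3 of the semaphorins that rose is shown because it holds the letters CCACG, read on the other strand as CGTGG, the short box that the transcription factors of the unfolded protein response, XBP1 among them, are known to bind as part of longer elements. RefSeq (GRCm38.p6) gave promoters for 49 of the 58 members, 64 in all, and the 250 bases before each start were searched on both strands. The box lay in 46.9% of these promoters and in 28.3% of all 32851 promoters of that length, while the median GC content was 64.4% in the members' promoters and 52.4% in all. Among matched members the box was found for 5 of 13 that rose, 1 of 2 that fell and 21 of 34 that were not called. Of 2 longer elements, the ER stress response element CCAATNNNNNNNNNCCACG was in none of the 64 and in 0.113% of all promoters, and the core of the unfolded protein response element, TGACGTG, was in none of the 64 and in 1.65% of all. Each line is the plus strand, 5′ to 3′, with the box in capitals; the windows are chr5:17574566-17574815, chr5:14025026-14025275 and chr19:44989094-44989343. The Sema3e window lies directly before the gene's 5′ end, the Sema3c window lies inside the gene and the Sema4g window lies almost wholly inside it, since each gene has transcripts that start further upstream.
Sema3c: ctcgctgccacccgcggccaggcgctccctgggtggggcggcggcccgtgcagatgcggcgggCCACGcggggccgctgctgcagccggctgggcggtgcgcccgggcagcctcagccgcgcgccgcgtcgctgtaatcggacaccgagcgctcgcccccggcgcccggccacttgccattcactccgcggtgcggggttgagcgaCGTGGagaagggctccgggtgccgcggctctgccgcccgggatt
Sema3e: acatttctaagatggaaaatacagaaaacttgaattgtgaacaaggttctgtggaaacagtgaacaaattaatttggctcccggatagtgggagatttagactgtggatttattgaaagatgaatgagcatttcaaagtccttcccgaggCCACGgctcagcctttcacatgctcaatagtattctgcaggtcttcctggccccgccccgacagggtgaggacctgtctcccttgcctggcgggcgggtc
Sema4g: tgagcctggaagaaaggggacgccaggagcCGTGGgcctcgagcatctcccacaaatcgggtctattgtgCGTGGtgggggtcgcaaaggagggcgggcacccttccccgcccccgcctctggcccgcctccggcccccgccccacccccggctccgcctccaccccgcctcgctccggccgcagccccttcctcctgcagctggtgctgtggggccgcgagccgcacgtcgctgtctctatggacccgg
Sema3c held the box once in each orientation, Sema3e held CCACG once and Sema4g held CGTGG in 2 places. A match is a description of these letters only.

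Ephrins rose in 2 of 6 genes. Efna5, an A-type ephrin that in mouse beta cells is known as a partner of EphA receptors at cell contacts, read 225, 244, 193 and 191 in KO libraries, against 107, 102, 110 and 97 in WT libraries. The KO values were all well above the WT values, which lay within a narrow band. The KO mean was 2.05 times the WT mean (1.02 ± 0.13, adjusted p = 0.00113), with 1.16 in libraries 1 and 2 and 0.89 in libraries 3 and 4. Efnb3, a transmembrane B-type ephrin, read 905, 1251, 668 and 779 in KO libraries, against 382, 377, 396 and 436 in WT libraries. The lowest KO library was above the highest WT library (1.14 ± 0.18, adjusted p = 0.00254). Per kb of exon, Efnb3 averaged 283 in KO islets, rank 4 of the 58 genes, and 125 in WT islets, rank 12.

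The other ephrins were not called. Efnb1 read 859, 725, 511 and 574 in KO libraries, against 419, 451, 480 and 576 in WT libraries, with KO above WT in libraries 1 and 2 and the groups mixed in libraries 3 and 4 (0.45 ± 0.17, adjusted p = 0.097). Efnb2, known from arteries, read 295, 267, 381 and 464 in KO libraries, against 182, 185, 235 and 298 in WT libraries. Within each library set KO lay above WT, but across sets the groups overlapped (0.64 ± 0.22, adjusted p = 0.068, and 0.00749 with the replicate block). Efna1 read 211, 197, 342 and 228 in KO libraries, against 186, 216, 306 and 228 in WT libraries, with no separation (0.05 ± 0.21, a sign that turned to -0.07 under quantile normalization). Efna2 was as close to 0 (0.04 ± 0.25).

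Of the receptors that ephrins bind, 3 of 10 rose. Epha3 read 107, 69, 181 and 140 in KO libraries, against 33, 37, 49 and 63 in WT libraries. The groups did not overlap, and libraries 3 and 4 were the higher ones in both. The KO mean was 2.73 times the WT mean (1.39 ± 0.33, adjusted p = 0.0179), and the call was lost without KO replicate 4 (adjusted p = 0.0538). Epha1 read 139, 99, 127 and 113 in KO libraries, against 50, 43, 86 and 71 in WT libraries, again with no overlap. It was called (0.97 ± 0.25, adjusted p = 0.0237), but not when any of 5 libraries was left out (highest adjusted p 0.066). Of its exon bases 6.01% lie in exons of Zyx on the opposite strand, and whether counting used strand is not given in the sources used here. Genes of the opposite strand that are not in the table share 10.7% of the exon bases of Plxna1 and 7.27% of those of Sema4c. Ephb2, a B-type receptor, read 353, 347, 257 and 236 in KO libraries, against 112, 208, 156 and 153 in WT libraries. Every KO library was above every WT library (0.93 ± 0.21, adjusted p = 0.0152), with 1.19 in libraries 1 and 2 and 0.67 in libraries 3 and 4.

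The other 7 Eph receptors did not pass the test. Epha7 read 379, 285, 290 and 298 in KO libraries, against 315, 414, 271 and 317 in WT libraries, fully mixed (-0.07 ± 0.15, adjusted p = 0.805). Epha2 read 194, 119, 315 and 280 in KO libraries, against 76, 151, 311 and 296 in WT libraries, where the library set and not the genotype ordered the values (0.23 ± 0.47, adjusted p = 0.772). Ephb4, known from veins, read 645, 308, 378 and 381 in KO libraries, against 202, 271, 256 and 308 in WT libraries. KO replicate 2 equalled WT replicate 4 at 308, so the groups touched (0.68 ± 0.23, adjusted p = 0.0634). Ephb3 had the largest difference of the uncalled Eph receptors (1.15 ± 0.37, adjusted p = 0.0538), and Ephb6, Epha4 and Epha5 had log2 fold changes of 0.58, 0.23 and 0.75. Epha5, the receptor most often paired with ephrin-A5 in mouse beta cells, was the lowest of all 58 genes per kb of exon, at 1.97 in KO and 0.848 in WT islets.

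Robo1 had the smallest adjusted p of the 58 genes, and it fell. This Slit receptor, at chr16:72308306-73046095 (GRCm38, plus strand), read 1314, 1492, 1217 and 1231 in KO libraries, against 2603, 2695, 2120 and 2484 in WT libraries. The highest KO library was below the lowest WT library by a wide gap. The KO mean was 0.531 times the WT mean, a log2 fold change of -0.91 ± 0.10 (adjusted p = 0.000547), with -0.92 in libraries 1 and 2 and -0.91 in libraries 3 and 4. Leaving out any 1 library gave -0.99 to -0.87 with the call kept. Robo2, its paralog and neighbour 845.7 kb away at chr16:73891839-74411825 (minus strand), read 8778, 7083, 6419 and 6310 in KO libraries, against 7450, 7716, 5436 and 6426 in WT libraries. The groups overlapped throughout (0.08 ± 0.14, adjusted p = 0.73). The ratio of Robo1 to Robo2 was 0.15, 0.211, 0.19 and 0.195 in KO libraries, against 0.349, 0.349, 0.39 and 0.387 in WT libraries, with no overlap. Per kb of exon, Robo1 ranked 25 of 58 in KO islets (79.6) and 7 in WT islets (150), while Robo2 ranked 2 in both (421 in KO and 398 in WT).

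The 250 bases before an annotated start are given for this pair because Robo1 fell while its neighbour Robo2 was not called. The Robo1 window, chr16:72662899-72663148 on the plus strand, lies inside the gene, before the start of a shorter transcript. The Robo2 window, chr16:74411826-74412075 on the minus strand, lies directly before the gene's 5′ end and is read on that strand.
Robo1: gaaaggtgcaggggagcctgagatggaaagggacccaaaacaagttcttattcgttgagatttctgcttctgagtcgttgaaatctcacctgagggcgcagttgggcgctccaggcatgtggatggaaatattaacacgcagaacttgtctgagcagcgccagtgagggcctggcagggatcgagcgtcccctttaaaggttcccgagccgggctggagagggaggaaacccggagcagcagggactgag
Robo2: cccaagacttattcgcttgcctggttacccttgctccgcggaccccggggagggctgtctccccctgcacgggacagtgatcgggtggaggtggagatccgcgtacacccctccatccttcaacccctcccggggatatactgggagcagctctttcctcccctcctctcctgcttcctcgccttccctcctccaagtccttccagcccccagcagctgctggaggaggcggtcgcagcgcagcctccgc
Neither window holds CCACG or its complement CGTGG, so no letter is in capitals; another RefSeq promoter of Robo2 does hold the box. Their GC content was 56.0% for Robo1 and 65.6% for Robo2.

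Robo4, a Robo of endothelial cells, read 346, 324, 818 and 647 in KO libraries, against 471, 580, 1030 and 974 in WT libraries. Within each library set KO lay below WT, and across sets the groups overlapped. Its log2 fold change was -0.55 ± 0.36 (adjusted p = 0.314, and 0.0133 with the replicate block). The endothelial marker list had a median log2 fold change of 0.17 in the same comparison, with 13 of its 14 genes above 0.

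Slit2, a secreted ligand of Robo1 and Robo2, rose. It read 81, 124, 184 and 149 in KO libraries, against 32, 44, 60 and 66 in WT libraries. The groups did not overlap, and the KO mean was 2.66 times the WT mean (1.39 ± 0.31, adjusted p = 0.0145), with 1.39 in libraries 1 and 2 and 1.38 in libraries 3 and 4. Slit3 read 72, 164, 211 and 171 in KO libraries, against 58, 81, 101 and 85 in WT libraries. KO replicate 1 lay among the WT values and the other KO libraries above them (0.84 ± 0.33, adjusted p = 0.104, and 0.0201 with the replicate block). Slit1, mainly known from the nervous system, had a mean of 32.5 ± 10.7 in KO and 45.5 ± 7.9 in WT islets (SD, n = 4 each) and was not called (-0.51 ± 0.31).

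Introns of Slit2 and Slit3 each hold, on the same strand, a hairpin of a microRNA known to repress Robo1 in other tissues, which is why its sequence is shown. The mature 5′ arm is the same from both hairpins, at chr5:48223966-48223986 (plus strand) in Slit2 and chr11:35616840-35616860 (plus strand) in Slit3, per RefSeq (GRCm38.p6); bases 2 to 8, the seed, are in capitals.
mmu-miR-218-5p: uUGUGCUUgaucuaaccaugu
Its own level was not analysed here, and no link to the values of Robo1 was tested.

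**Figure D2:**
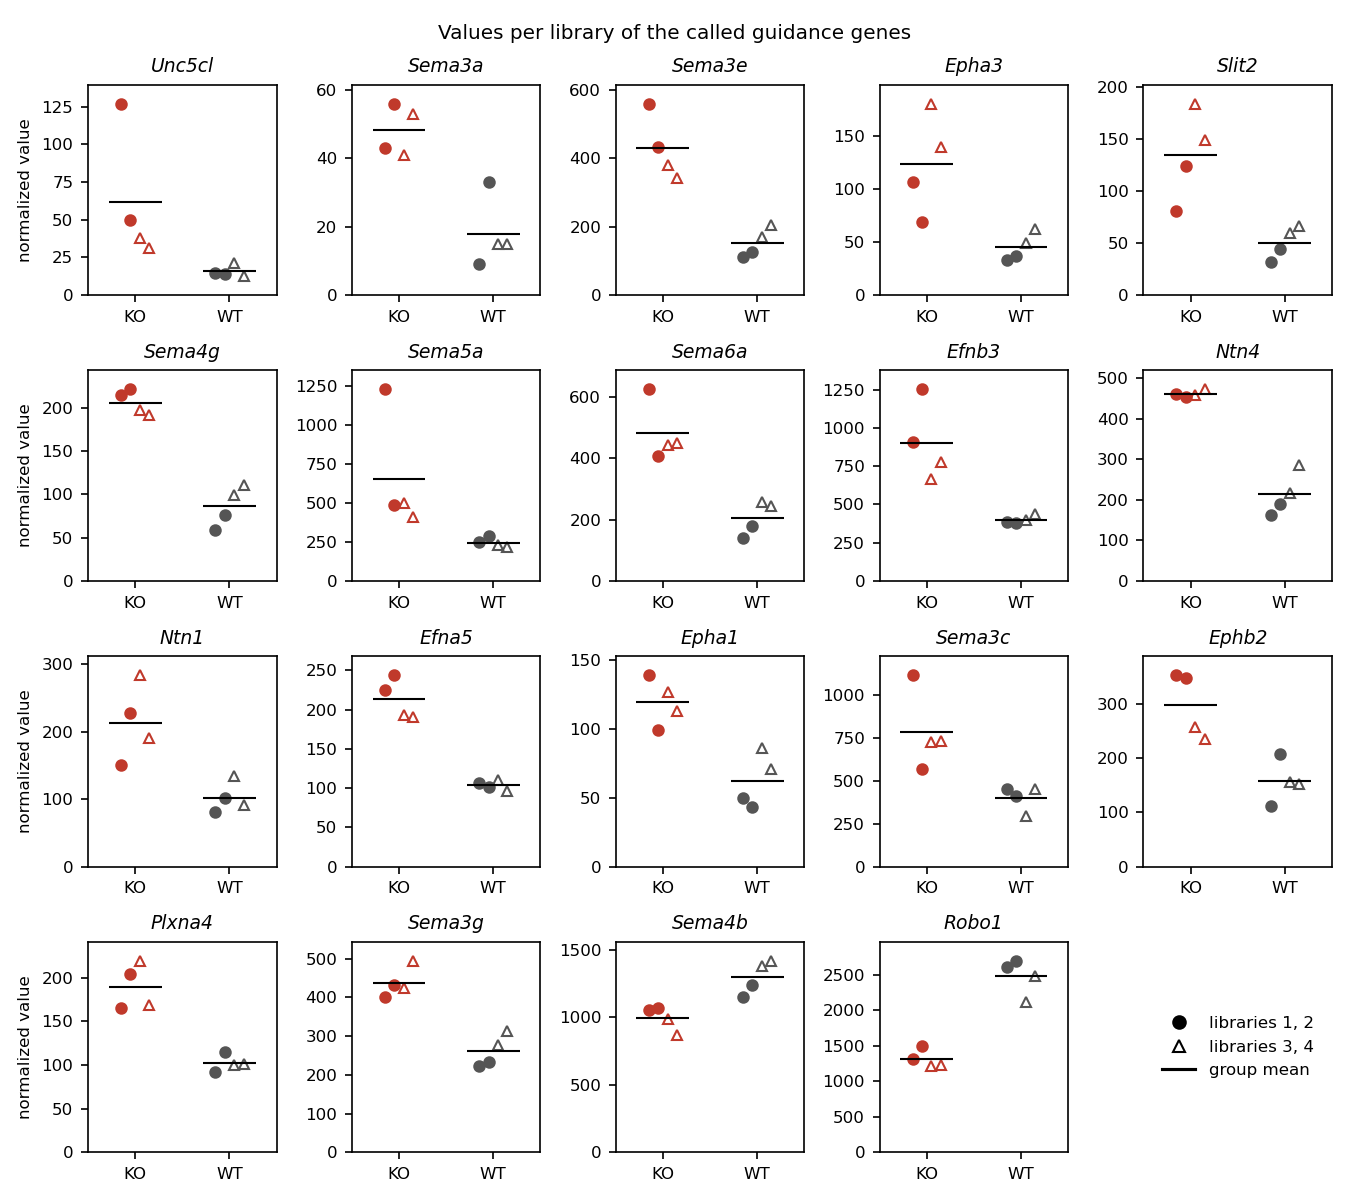
Normalized value in each library of the 19 guidance genes called between KO (left, red) and WT (right, grey), each panel on its own linear axis from 0; filled circles are libraries 1 and 2, open triangles libraries 3 and 4 and lines the group means. In all 19 panels the KO and WT points do not overlap; KO replicate 1 stands far above the others for Sema5a (1231) and Unc5cl (127).

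Both netrins in the table rose. Ntn4, a netrin of basement membranes that binds laminin, read 461, 454, 459 and 473 in KO libraries, against 164, 191, 218 and 287 in WT libraries. The KO libraries were nearly equal, with a mean of 461.8 ± 8.1, and the WT libraries averaged 215.0 ± 52.8 (SD, n = 4 each). The log2 fold change was 1.13 ± 0.16 (adjusted p = 0.0018). Ntn1, the classical attractant of commissural axons, read 151, 228, 284 and 191 in KO libraries, against 81, 102, 135 and 92 in WT libraries. The groups did not overlap (1.04 ± 0.23, adjusted p = 0.0132), and the difference was alike in libraries 1 and 2 (1.02) and in libraries 3 and 4 (1.06).

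None of the 4 netrin receptors of the Unc5 family was called. Unc5c, the most counted, read 1737, 1895, 1310 and 1273 in KO libraries, against 1482, 1629, 1085 and 1377 in WT libraries, with overlap (0.15 ± 0.17, adjusted p = 0.566). Unc5b read 943, 734, 623 and 774 in KO libraries, against 404, 556, 653 and 642 in WT libraries. KO was higher by 0.81 in libraries 1 and 2, the groups overlapped in libraries 3 and 4 (0.10), and over all 8 libraries the log2 fold change was 0.46 ± 0.18 (adjusted p = 0.102). Unc5a had a log2 fold change of 0.17. Unc5d did not overlap between groups (0.98 ± 0.36, adjusted p = 0.0818, and 0.0491 with library set as a term). By the authors' FDR Unc5b (0.0345) and Unc5d (0.0352) were called higher, and Unc5a and Unc5c were not. Unc5cl read 127, 50, 38 and 31 in KO libraries, against 15, 14, 21 and 13 in WT libraries. KO replicate 1 stood apart, the groups did not overlap, and the log2 fold change was 1.70 ± 0.45 (adjusted p = 0.0286), a call lost on leaving out any of 4 libraries (highest adjusted p 0.0659). Neogenin (Neo1), another netrin receptor, read 5680, 5541, 4934 and 5226 in KO libraries, against 5557, 5757, 4495 and 4718 in WT libraries, and did not separate by genotype (0.06 ± 0.10, adjusted p = 0.689). Dscam, a netrin co-receptor on the list of partner genes given below, rose with no overlap (1.09 ± 0.19, adjusted p = 0.00499). It was named after its values were seen.

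Of the semaphorin receptors, 1 of 9 plexins rose and neither neuropilin was called. Plxna4, a partner of neuropilins for class 3 semaphorins and a receptor for Sema6a, read 165, 204, 219 and 169 in KO libraries, against 92, 115, 100 and 101 in WT libraries. The groups did not overlap (0.88 ± 0.15, adjusted p = 0.00387), with 0.83 in libraries 1 and 2 and 0.93 in libraries 3 and 4. Plxnb2, a receptor of class 4 semaphorins, read 8021, 7325, 5551 and 5286 in KO libraries, against 7300, 9243, 7124 and 7410 in WT libraries. Libraries 3 and 4 were lower in KO than in WT (-0.42) and libraries 1 and 2 were mixed (-0.10), and over all 8 the log2 fold change was -0.26 ± 0.15 (adjusted p = 0.255). Plxna2 read 3209, 3224, 2962 and 2872 in KO libraries, against 3778, 4114, 2860 and 2641 in WT libraries, with differences of opposite sign in the library sets (-0.29 and 0.09) and no call (-0.10 ± 0.14).

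Plxnd1, the receptor of Sema3e, had a log2 fold change of 0.03 ± 0.22, beside 1.50 for its ligand. Plxnc1, the receptor of Sema7a, read 123, 125, 157 and 154 in KO libraries, against 100, 67, 117 and 90 in WT libraries. The groups did not overlap, and the call depended on the model (0.59 ± 0.20, adjusted p = 0.0638, and 0.0442 with the replicate block). The other plexins, Plxna1, Plxna3, Plxnb1 and Plxnb3, were not called, with log2 fold changes from 0.24 to 0.98. Nrp1, a co-receptor of class 3 semaphorins and of VEGF, read 2709, 2452, 3797 and 4140 in KO libraries, against 2501, 3032, 2469 and 2541 in WT libraries. KO lay above WT in libraries 3 and 4 (0.66) and not in libraries 1 and 2 (-0.10), and over all 8 it was not called (0.28 ± 0.17, adjusted p = 0.273). Nrp2 read 308, 414, 580 and 698 in KO libraries, against 291, 340, 367 and 370 in WT libraries, with overlap (0.48 ± 0.23, adjusted p = 0.178).

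Summed over the 29 ligand genes, the values were 12776, 11267, 12015 and 11437 in KO libraries, against 6962, 7997, 9567 and 9489 in WT libraries. Every KO sum was above every WT sum. Summed over the 28 receptor genes, they were 36136, 32559, 30412 and 30061 in KO libraries, against 31664, 36356, 29260 and 31171 in WT libraries, fully mixed. These sums are not per length and are led by the most counted genes, and they carry no test. In all, 21 members had every KO library above every WT library, where 13.6% of all genes did, and 2 had every KO library below, where 12.3% did.

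**Figure D3:**
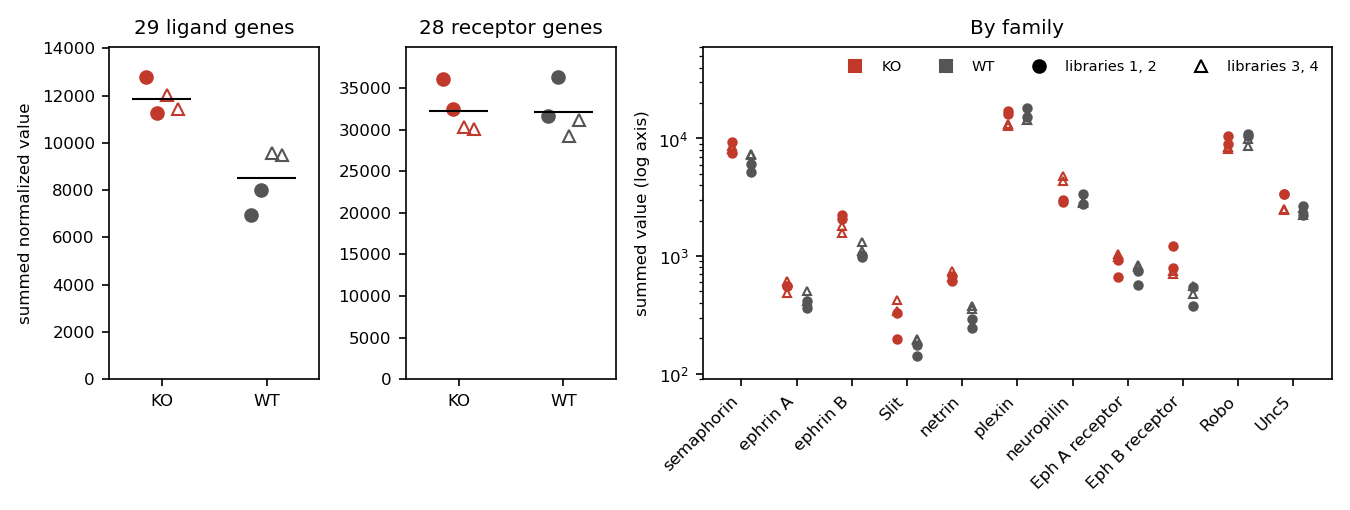
Summed normalized values per library of the 29 ligand genes and the 28 receptor genes (linear axes from 0, lines are group means), and of each family (log axis), KO in red to the left of WT in grey; filled circles are libraries 1 and 2, open triangles libraries 3 and 4. Ligand sums are at least 11267 in KO and at most 9567 in WT libraries, and receptor sums overlap.

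Levels are comparable between genes only per length of exon. On that scale the guidance genes of islets were led by receptors: Plxnb2 averaged 848 per kb in KO and 1010 in WT islets, Robo2 421 in KO and 398 in WT, and Nrp1 335 in KO and 269 in WT. The highest ligand was Efnb3 in KO islets (283) and Sema4b in WT islets (229, with 176 in KO). Plxna2 averaged 179 in KO and 195 in WT, and Plxnb1 averaged 234 in KO and 195 in WT. Several ligands that rose were far down this order: Slit2 averaged 5.29 per kb in KO and 1.99 in WT, and Sema3a 3.48 in KO and 1.30 in WT.

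**Figure D4:**
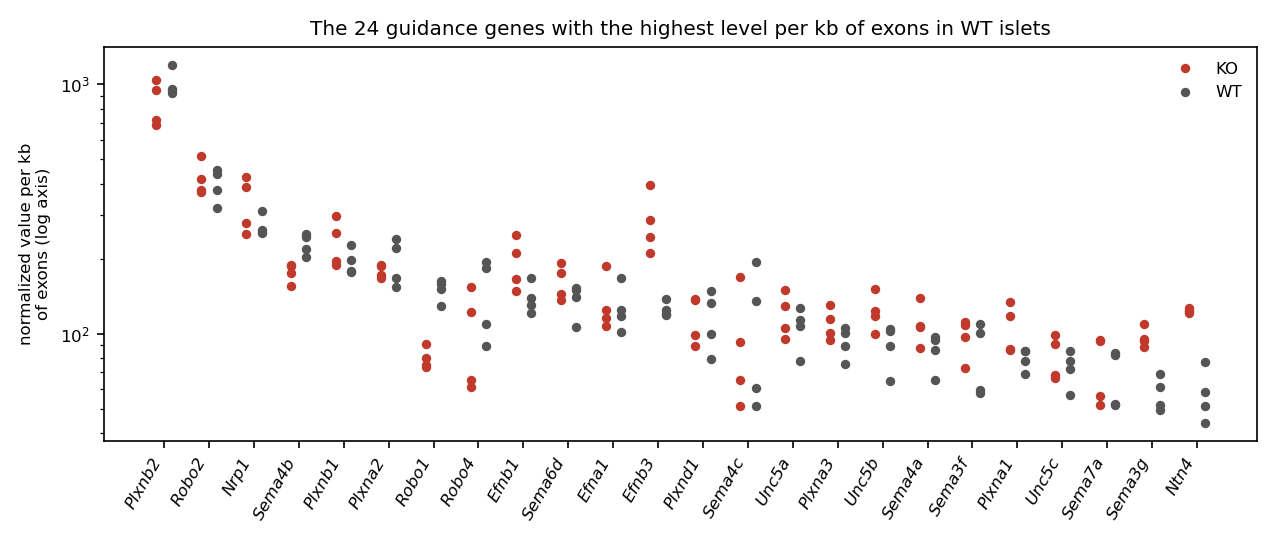
Normalized value per kb of exons in each library (log axis) for the 24 guidance genes with the highest mean on that scale in WT islets, KO in red left of WT in grey. Plxnb2 and Robo2 lead in both groups, Robo1 is lower in all 4 KO libraries and Efnb3 and Ntn4 are higher in all 4 KO libraries.

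The library set was the other axis along which guidance genes varied. With group in the model, 13 members were higher in libraries 3 and 4 than in libraries 1 and 2 (9.38% of all genes), and 6 were lower (6.06%). The higher ones included Sema3b (1.95), Epha5 (1.80), Sema4c (1.32), Plxnb3 (1.29), Epha2 (1.23), Robo4 (1.03), Sema7a (0.73) and Plxnd1 (0.61). The lower ones were Robo2, Unc5c and the plexins Plxna2, Plxna3, Plxnb1 and Plxnb2, by 0.33 to 0.42 on the log2 scale. Markers of other cells were higher in libraries 3 and 4 too: 10 of 14 stellate cell and fibroblast markers, 6 of 14 endothelial, 5 of 7 Schwann cell and 6 of 11 leukocyte markers were called. Their part in these differences was not tested. Of the 19 members called by genotype, Epha3 and Slit2 were also called by library set, higher in libraries 3 and 4 by 0.77 and 0.72. No member's KO against WT change was called different between the library sets by the interaction term in limma, and 14 genes of the table (0.0991%) were. The count of members was 0 in limma without trend as well. Each set holds only 2 libraries a group, so the lack of calls does not show that the changes were alike. An unadjusted p under 0.05 was found for 17 members. The share of all genes at that threshold is not given here, and 0.0991% is not its counterpart.

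**Figure D5:**
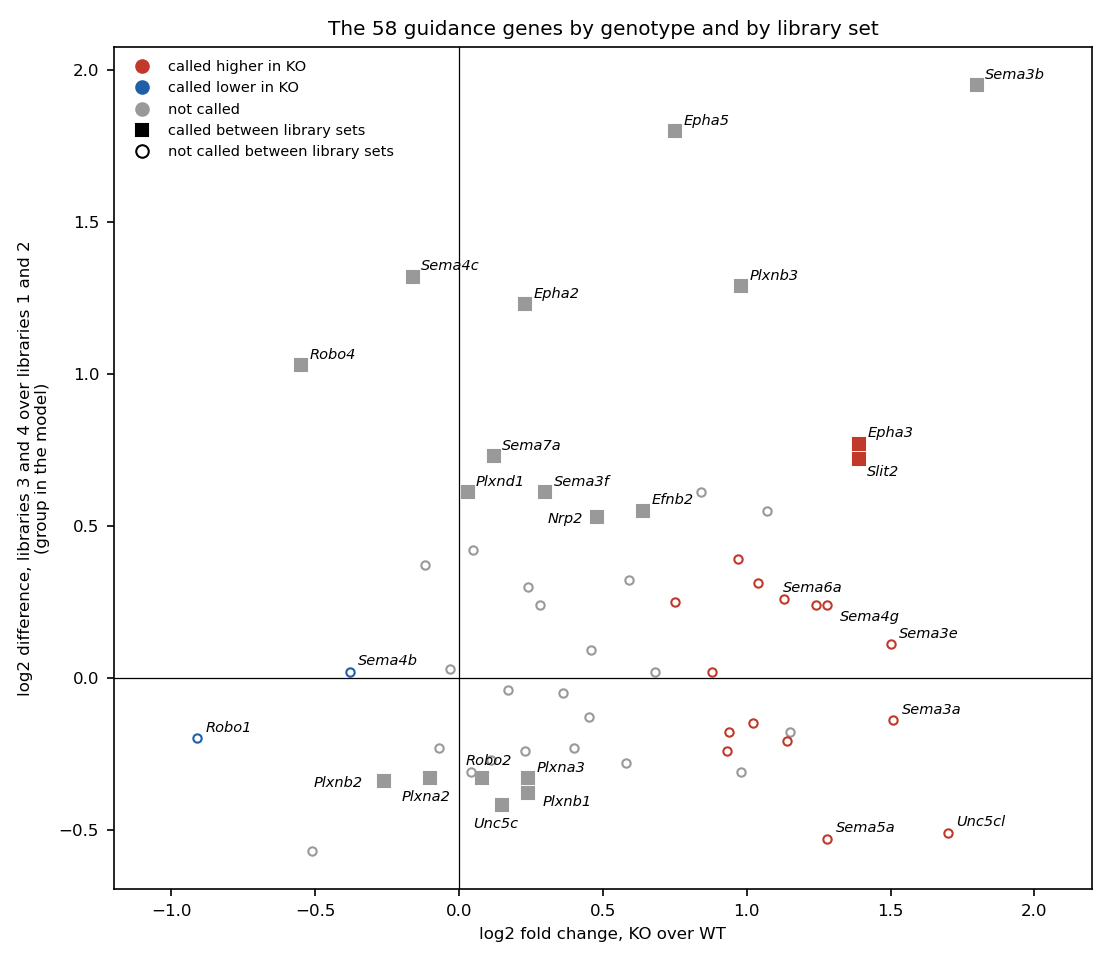
Log2 fold change of KO over WT (x) against the log2 difference of libraries 3 and 4 over libraries 1 and 2 with group in the model (y) for the 58 guidance genes; red was called higher in KO, blue lower, grey not called, and filled squares were called between library sets. Genes far up the y axis, such as Sema3b, Epha5 and Sema4c, are grey, and Robo1 and Sema3e lie at -0.20 and 0.11 on it.

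Of 108 listed genes that act with or below the guidance receptors (co-receptors, adaptors, sheddases and intracellular signalling and cytoskeletal proteins), 99 were measured; Kdr among them is also an endothelial marker. Of these 25 rose and 8 fell in KO islets, with a median log2 fold change of 0.18, beside 11.1% and 9.81% of all genes. The largest differences were in Flrt2 and Flrt3, cell-surface ligands of Unc5 receptors. Flrt2 read 595, 63, 98 and 107 in KO libraries, against 17, 35, 26 and 42 in WT libraries, with KO replicate 1 far above the others (2.27 ± 0.64, adjusted p = 0.0353; the call was lost on leaving out any of 5 libraries, highest adjusted p 0.0853). Flrt3 read 206, 51, 89 and 79 in KO libraries, against 21, 16, 16 and 35 in WT libraries, with no overlap (2.10 ± 0.44, adjusted p = 0.0109).

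Among the 8 partner genes with the largest change, 3 act on Rac. Other Rac regulators on the list went both ways: Dock1 rose (0.92 ± 0.12), and Vav2, Trio and Chn1 fell, as given below. Srgap2 (0.70 ± 0.14) and Srgap3 (0.89 ± 0.17), also on the list, rose too, and Srgap1 was not called (-0.04 ± 0.14). Rac1 itself was not called (0.13 ± 0.08, adjusted p = 0.302). Tiam1, an exchange factor that activates Rac, read 804, 753, 792 and 695 in KO libraries, against 243, 280, 297 and 286 in WT libraries. The groups were far apart (1.46 ± 0.10, adjusted p = 7.6e-05). Vav3, another exchange factor, read 257, 248, 280 and 364 in KO libraries, against 104, 80, 111 and 135 in WT libraries (1.42 ± 0.19, adjusted p = 0.00137). Chn2, which switches Rac off, read 108, 112, 135 and 130 in KO libraries, against 36, 34, 63 and 62 in WT libraries (1.35 ± 0.25, adjusted p = 0.00624). For both genes the groups did not overlap. Dpysl3, a collapsin response mediator of semaphorin signalling, read 486, 386, 536 and 480 in KO libraries, against 129, 188, 222 and 215 in WT libraries (1.34 ± 0.19, adjusted p = 0.00158).

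The adaptors Anks1b and Pdzrn3 rose as well. Anks1b read 100, 67, 101 and 88 in KO libraries, against 22, 33, 40 and 36 in WT libraries (1.43 ± 0.26, adjusted p = 0.00525). Pdzrn3 read 154, 137, 169 and 150 in KO libraries, against 25, 72, 57 and 92 in WT libraries (1.44 ± 0.35, adjusted p = 0.0212), a call lost on leaving out any of 3 libraries (highest adjusted p 0.0557). Neither gene overlapped between groups. The 8 genes that fell were Chn1 (-0.36), Vav2 (-0.47), Trio (-0.53), Anks1 (-0.70), a phosphotyrosine adaptor of Eph receptors, Grip1 (-0.69), a scaffold for B-type ephrins, the filopodial myosin Myo10 (-0.68), the adaptor Nck2 (-0.68) and the phosphatase Ptpn11 (-0.43). The netrin co-receptor Dcc was not analysed here.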

How the data were processed

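The submitters' processing notes name RSEM 1.2.31, STAR 2.5.3a, edgeR 3.16.15, bcl2fastq 2.20 and build GRCm38.p5, without settings, and neither strandedness nor depth is given in the sources used here. The 8 library columns deposited by the authors are normalized counts rounded to whole numbers, a score rather than raw counts, so no count test was run. Their sums, from 32024139 (KO replicate 4) to 34858983 (WT replicate 4), are not depths. The spacing of low values gave no factor for whole reads (correlation of 0.28 to 0.849), so precision rests on the spread between 4 libraries a group. The authors' deposited table also holds a p-value, an FDR, a likelihood ratio (a score), a log2 fold change and a log2 CPM for each gene.

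limma 3.58.1 (R 4.3.3) with a mean-variance trend was fitted to log2(value + 1). Genes needed a value of 1 or more in 4 or more libraries, and p-values were adjusted over all 14121 by Benjamini-Hochberg, with a threshold of 0.05. The log2(value + 1) scale understates changes of low genes. The test was checked on simulated data. Members and lists were chosen with earlier results of these data known. Values in every library are given for Ern1, called members, the 2 most counted members of each family, the 8 called partner genes with the largest change, and Neo1; for Sema3b, Sema4f, Plxnc1, Efnb2, Robo4, Pclo, Hgf and Met they were added after their values were seen. Both groups carry replicate numbers 1 to 4. Libraries sharing a number deviated together from their group means, with r of 0.329, 0.585, 0.666 and 0.383 over 13080 genes averaging more than 50, while libraries of different numbers gave r from -0.614 to 0.519. The same-number r each passed 0.1, so libraries were taken as paired by number in an alternative fit with a replicate block. The highest r between different numbers, 0.519, was above those of numbers 1 and 4. These r therefore cannot show that the number is what pairs the libraries, and nothing in the labels says what a number marks. Coordinates and exon lengths are from GENCODE M21 (GRCm38), promoters and microRNAs from RefSeq (GRCm38.p6). The alternatives were leaving out each library, each library set alone, library set as a term, other pseudocounts (0.1 and 5), filters and scalings, limma without trend, and the authors' own calls.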

Additional observations from a re-analysis of the deposited data

Results flagged for a closer look

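In 5 of 86 groups of 4 libraries examined, 1 library lay far from the other 3, and chance gives about 1 in 20. Among KO libraries it was KO replicate 1, with 1231 for Sema5a, 595 for Flrt2 and 379 for Epha7. The others were WT replicate 2, with 3032 for Nrp1 and 9243 for Plxnb2. Of the ductal markers, all but Krt8, Krt18 and Tff2 were highest in KO replicate 1 among KO libraries. Krt19 read 1673 there, against 216, 106 and 54 in KO replicates 2, 3 and 4. These markers were looked at after their values were seen, and any link to the values above was not tested.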

How the results depend on the processing

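Guidance genes called higher numbered 17, and 14 to 19 on leaving out 1 library; with library set as a term they were 27, and by the authors' deposited FDR they were 29. Genes called lower numbered 2, 1 to 2 on leaving out 1 library (Sema4b was lost without KO replicate 3 or 4 or WT replicate 2, 3 or 4) and 4 in libraries 3 and 4 alone. Over all genes, 1562 were called higher and 1385 lower; with library set as a term these were 2400 and 2102, and the lower ones numbered 863 to 1597 on leaving out 1 library (863 without WT replicate 2, 909 without KO replicate 4). Quantile normalization left 14 members higher, losing Epha1, Sema3a and Unc5cl. The replicate block gave 22 higher and 3 lower; it ended no member's call, and its value is given beside each of the 6 members it added. Among the genes given by library, signs turned as follows: Efna1 was -0.07 under quantile normalization, Epha2 -0.03, Epha7 0.00 and Plxna2 0.09 in libraries 3 and 4 alone, and Neo1 -0.01 and Nrp1 -0.10 in libraries 1 and 2 alone. Uncalled members outside that group turned sign as well, Efna2 to -0.39, Unc5a to -0.26 and Plxnd1 to -0.03 in libraries 3 and 4 alone, and Epha5 to -0.08, Sema6b to 0.34 and Sema4c to 0.06 in libraries 1 and 2 alone. On leaving out 1 library, Efna1 ran from -0.12 to 0.19, Epha2 from -0.18 to 0.51, Epha7 from -0.16 to 0.05, Plxna2 from -0.21 to 0.00 and Robo2 from -0.02 to 0.15. For single genes named, 790 alternative values kept direction and side of the threshold, 39 lost the call, 18 gained it and 13 turned sign. The cause was not tested for any of these. Values of low genes such as Sema3a, Slit2 and Epha5 are small, and their counting error is unknown.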

Other observations

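The 3 class 3 semaphorin genes of chromosome 5 that were measured lie on the plus strand in 1 region, and each rose: Sema3a at chr5:13125414-13602565, Sema3e at chr5:14025276-14256689, 422.7 kb further on, and Sema3c at chr5:17574281-17730268, a further 3317.6 kb away (GRCm38). The measured genes between Sema3e and Sema3c were Pclo, Cacna2d1 and Hgf. Pclo, a presynaptic scaffold, read 7137, 8201, 5956 and 5313 in KO libraries, against 13696, 15543, 6502 and 8241 in WT libraries, and was not called (-0.66 ± 0.27, adjusted p = 0.123). Cacna2d1, a calcium channel subunit, was not called either (-0.03 ± 0.10, adjusted p = 0.871). Hgf, the ligand of the receptor Met, read 89, 90, 101 and 78 in KO libraries, against 29, 32, 49 and 47 in WT libraries, with no overlap (1.2 ± 0.24, adjusted p = 0.00779); it was singled out after its values were seen. Met, which also partners plexins, read 3012, 2314, 2209 and 2366 in KO libraries, against 1752, 1674, 1481 and 1413 in WT libraries, and rose (0.64 ± 0.12, adjusted p = 0.00539).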
